A study of Mus musculus with 2 samples.

Results

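Trpm8 neurons of the mouse trigeminal ganglion (TG) were taken from 2 single-cell RNA libraries, and they numbered 73 of 1204 neurons. The neurons lay among 10356 cells that passed the filters on genes and mitochondrial counts, of 11378 cells in all. A cell was kept with at least 150 detected genes and at most 25% of its unique molecular identifiers (UMIs, counts of distinct captured RNA molecules) in mitochondrially encoded genes. A neuron was a kept cell with at least 5000 UMIs and at least 10 UMIs of the neuronal genes Tubb3, Snap25 and Stmn2 together. A Trpm8 neuron was a neuron with at least 3 UMIs of Trpm8 that stood at 50 CPM or more, where CPM are UMIs of a gene per 1000000 UMIs of the cell or group. The cells were thus chosen by their Trpm8 UMIs, and every difference from the other neurons below is a description without a test.

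Both libraries were made on the BD Rhapsody platform from papain-dissociated TGs of male C57BL/6 mice aged 5 to 8 weeks, and cells were isolated on a density gradient. The CFA library came from mice with 20 µL of complete Freund's adjuvant (CFA, a suspension that causes lasting inflammation) in the right vibrissal pad, and the right TG was collected at day 7. The control library is labelled untreated in the public record, whereas the methods describe saline in place of CFA. How many mice a library pools was not stated. With 1 library per condition there is no replicate, so no p-value is given and the intervals cover counting error only. The control library held 48916096 UMIs in 7298 cells and the CFA library 22096268 UMIs in 4080 cells. The libraries shared 27 cell labels, none of them on a Trpm8 neuron.

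Trpm8 encodes a cation channel that opens on cooling and in response to menthol, and neurons that carry it are the main cold thermoreceptors of skin, cornea and teeth. Their threshold is known to depend on excitability as well as on the channel itself, since potassium channels of the Kv1 and two-pore families oppose the cold current while HCN pacemaker channels favour repetitive firing. Some Trpm8 neurons are thought to be thinly myelinated and to signal innocuous cooling, and others to share features of nociceptors. Nefh, the heavy neurofilament subunit of larger and myelinated neurons, and the neuropeptide genes Tac1 (substance P) and Calca (calcitonin gene-related peptide, CGRP) are commonly used to separate such types.

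The gene next to Trpm8 came up among the leading genes of these cells, so the sequences upstream of both genes are shown first. In the GENCODE M21 annotation of GRCm38, Trpm8 lies at chr1:88277661-88389293 on the plus strand and Hjurp at chr1:88262471-88277633 on the minus strand, and the 2 starts face away from each other 28 bases apart. That Trpm8 start belongs to a processed transcript without a coding sequence. The RefSeq start of Trpm8 at position 88306735 lies 29102 bases from that start of Hjurp. The following stretches hold the bases upstream of the RefSeq start of Trpm8 (chr1:88306485-88306734, plus strand) and upstream of the most distal annotated Hjurp start (chr1:88277634-88277829, minus strand), from RefSeq GRCm38.p6. Capitals mark the letters TATAAA of the TATA box motif.
Trpm8: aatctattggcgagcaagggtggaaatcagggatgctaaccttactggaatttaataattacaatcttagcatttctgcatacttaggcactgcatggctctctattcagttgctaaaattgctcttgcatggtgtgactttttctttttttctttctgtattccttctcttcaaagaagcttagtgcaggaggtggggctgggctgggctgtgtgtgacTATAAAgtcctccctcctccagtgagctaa
Hjurp: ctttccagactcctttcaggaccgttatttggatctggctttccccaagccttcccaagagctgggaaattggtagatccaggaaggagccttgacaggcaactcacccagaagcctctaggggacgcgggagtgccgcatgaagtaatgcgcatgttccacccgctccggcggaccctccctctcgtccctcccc
The TATAAA letters of Trpm8 begin 30 bases before its start. These letters, or TTTATA on the other strand, were found in 13.6% of 32851 mouse promoter windows of 300 bases, and the Hjurp window had none. The forkhead core TGTTTAC (or GTAAACA), present in 3.65% of windows, was in neither.

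The 49 Trpm8 neurons of the control library were 6.16% of its 795 neurons (exact 95% interval 4.59 to 8.07). The 24 of the CFA library were 5.87% of 409 neurons (3.80 to 8.61), so the shares overlapped within counting error. Trpm8 ran from 52.5 to 624 CPM per cell in control members, with a median of 201. It ran from 63.8 to 689 CPM in CFA members, with a median of 208, the lower end being set by the rule. Just inside the threshold stood 7 control and 3 CFA members with 3 Trpm8 UMIs. Just outside it, 8 control and 8 CFA neurons had 2 UMIs, reaching 86.7 and 241 CPM, and 33 and 13 neurons had 1 UMI. One control neuron with 3 UMIs was left out at 22.7 CPM. No Trpm8 UMI was counted in 94.4% of the other control neurons and 94.5% of the other CFA neurons.

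The cells behind these values were deeply counted. Control members held a median of 47541 UMIs (13224 to 147816) and CFA members 42344 (14551 to 96534), against 44446 and 36752 in the other neurons. After every cell was thinned to 5000 UMIs, Trpm8 was counted in 59.2% of control and 70.8% of CFA members, a description of the cells that the rule chose at full depth. Mitochondrially encoded genes took a median of 3.11% of UMIs in control members and 4.35% in CFA members, above the 2.21% and 2.45% of the other neurons.

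The markers given for this class were checked next. All 73 members had UMIs of Nefh and of Tac1. Summed over members, Nefh stood at 1371 CPM in control and 1467 CPM in CFA members, against 165 and 190 CPM in the other neurons. Tac1 stood at 2322 and 1464 CPM against 3236 and 2848 CPM, so it was present throughout but not above the average neuron. The combination of Nefh at 500 CPM or more with at least 3 Tac1 UMIs was met by 40 of 49 control and 21 of 24 CFA members. Cells with at least 5 UMIs of glial markers and none of the 3 neuronal genes, called glial cells below, also held some of these RNAs, with Tac1 at 116 and 49.7 CPM and Calca at 235 and 79.4 CPM over a median of 1209.5 and 1031 UMIs per cell.

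Against all other neurons of the same library, 427 of 7172 genes were at least 2-fold higher in the members of both libraries (5.95%) and 603 were at least 2-fold lower (8.41%). The 7172 genes had at least 30 UMIs in the members of both libraries, or at least 20 CPM in the other neurons of both. Of the 603 lower genes, 402 passed only through the other neurons, and of the 427 higher genes, 188 passed only through the members. A gene that passed only through the side where it was high could hardly be placed otherwise, so the counts by list below are descriptions, to be read against the shares of 5.95% and 8.41% over all genes. The median gene differed by -0.04 (control) and -0.10 (CFA) on the log2 scale. Ranked by the less extreme library, the 20 leading genes besides Trpm8 lay 18.4- to 160-fold above the other neurons, the upper end set by Fzd10os, whose 2 UMIs in the other CFA neurons were taken at a floor of 3 counts. Of the 20, 19 were also at least 2-fold above the other Nefh-high neurons (500 CPM of Nefh or more) in both libraries, Akain1 being the exception. With every cell weighted equally, the ratio of 13 of the 20 moved by over 1.5 times in at least 1 library, and all 20 stayed past 2-fold in both.

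Hjurp and Foxp2 are described first. Hjurp, which encodes a chaperone of the centromeric histone CENP-A, stood at 1705 CPM in control and 1688 CPM in CFA members against 31.3 and 28.6 CPM in the other neurons, 54.5- and 59.1-fold higher. It had UMIs in 48 of 49 and 24 of 24 members, with cell medians of 1694 and 1691 CPM.

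Foxp2, a forkhead transcription factor gene on chromosome 6, stood at 128 CPM in control members (exact interval of the ratio to other neurons 5.90 to 6.74 on the log2 scale) and 127 CPM in CFA members (5.32 to 6.46). The other neurons held 1.61 and 2.16 CPM. With every cell weighted equally the log2 ratios were 5.70 (control) and 4.45 (CFA), against 6.31 and 5.87 from summed UMIs. Per cell it ran from 0 to 270 CPM in control members, with a median of 127, and from 0 to 261 CPM in CFA members, with a median of 112. It had a UMI in 46 of 49 control and 22 of 24 CFA members, and so in nearly every cell of the class. After thinning, 49.0% and 37.5% of members kept a Foxp2 UMI, against 7.50% and 6.90% of the other Nefh-high neurons. No thinned peptidergic or Mrgprd neuron kept one. Unthinned, a Foxp2 UMI was found in 10% and 17.2% of Nefh-high, 4.75% and 2.50% of peptidergic and 5.33% and 1.56% of Mrgprd neurons, with median depths in the control library of 37155, 37547 and 69254 UMIs. In the glial cells Foxp2 was at 11.7 and 24.1 CPM, above the other neurons.

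The rest of the 20 are given by what they encode. Kcnh8, a voltage-gated potassium channel of the Elk family, stood at 58.0 and 84.4 CPM against 1.14 and 2.35 CPM. Kcnj9 (a G-protein-gated inward rectifier) stood at 31.2 and 40.3 CPM against 1.05 and 1.27 CPM. Grm2, a metabotropic glutamate receptor coupled to inhibitory G proteins, stood at 21.1 and 31.4 CPM against 0.222 and 0.381 CPM, and had UMIs in 24 and 11 members only. Among calcium-binding proteins, Hpca (hippocalcin) stood at 1407 and 1382 CPM against 59.0 and 68.0 CPM, and was counted in 49 of 49 and 23 of 24 members. S100a4 stood at 292 and 416 CPM against 12.6 and 11.8 CPM. Mt2, a metallothionein that binds zinc and copper, was 20.6- and 35.7-fold higher in members, but glial cells held far more of it, at 1958 and 1302 CPM against 429 and 578 CPM in members.

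Ccnd2 (cyclin D2) was 56.2- and 44.7-fold, Cpxm2 (a carboxypeptidase-like protein) 32.1- and 27.0-fold and Ndst4 (a heparan sulfate N-deacetylase) 34.6- and 18.4-fold above the other neurons. The others were Ociad2, Dnah6, Fam184b, Grxcr2, Angpt4, Syndig1, Akain1, Smpx and Fzd10os. UMIs were found in at least 80% of the members of both libraries for 8 of the 20, namely Foxp2, Hjurp, Hpca, Cpxm2, Mt2, Ndst4, Ociad2 and S100a4. Smpx, in contrast, was counted in only 15 and 8 members. Fzd10os is annotated as the opposite strand of Fzd10, which itself had 18 and 10 UMIs in members, and, as the use of strand in counting was not stated, these 2 genes cannot be told apart.

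**Figure D1:**
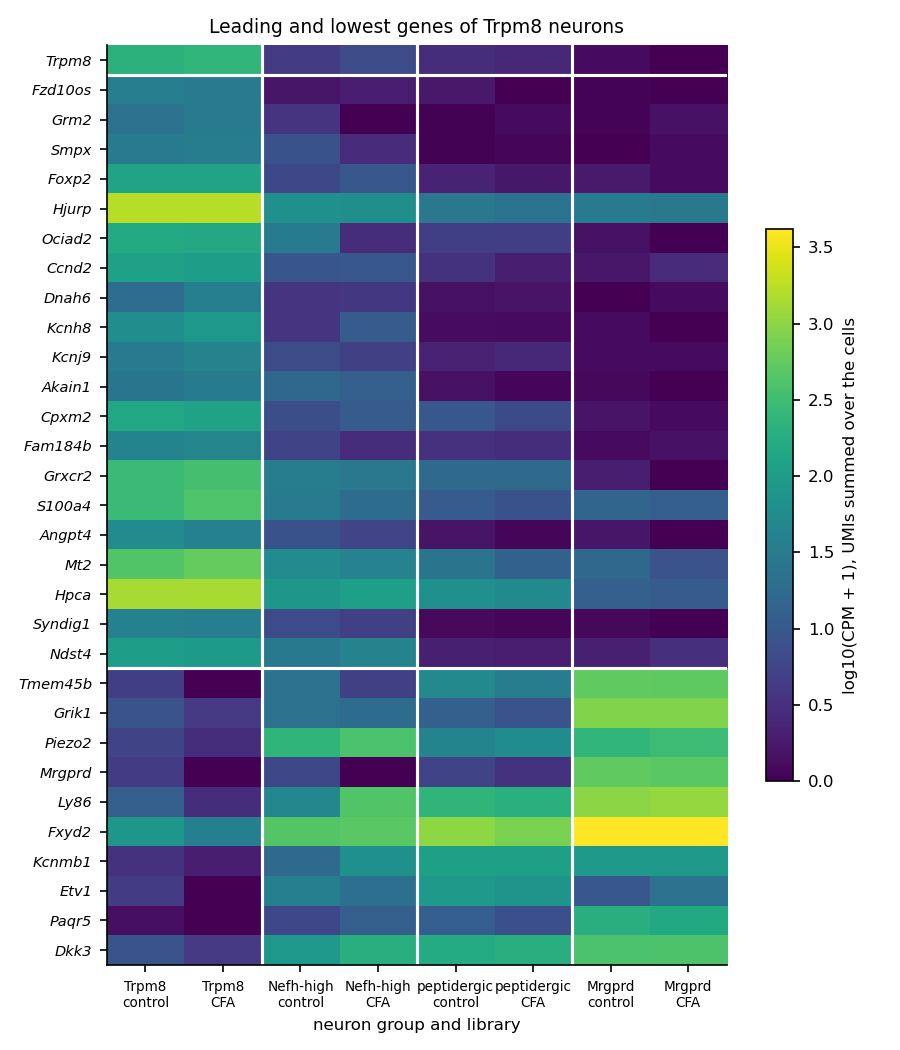
Level of Trpm8, the 20 leading and the 10 lowest genes in Trpm8, Nefh-high, peptidergic and Mrgprd neurons of each library, as colour for log10 of summed CPM plus 1. The Trpm8 columns are the brightest for the 20 leading genes, with Hjurp at 1705 and 1688 CPM, and the lowest genes are bright in the Mrgprd columns for the most part.

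At the other end, the 10 lowest genes lay 26.8- to 141-fold below the other neurons. Piezo2, the channel of touch receptors, stood at 4.46 CPM in control and 1.96 CPM in CFA members against 187 and 268 CPM in the other neurons. After thinning, Piezo2 was counted in 0% of control and 4.17% of CFA members, against 69.2% and 70.3% of Mrgprd neurons and 62.5% and 48.3% of the other Nefh-high neurons. Peptidergic neurons were low as well, at 14.0% and 16.0%. The unthinned shares of control cells were 14.3% of members, 98.2% of Mrgprd, 72.5% of Nefh-high and 38.3% of peptidergic neurons. Grik1 (a kainate receptor subunit) stood at 7.30 and 2.95 CPM against 307 and 257 CPM. Fxyd2, a regulator of the sodium pump, stood at 81.9 and 35.3 CPM against 2588 and 2208 CPM. Etv1, a transcription factor, had 8 UMIs in control members and 0 in CFA members, and was at least 32.0-fold lower in the latter by the floor of 3 counts. The list was completed by Mrgprd, Tmem45b, Ly86, Kcnmb1, Paqr5 and Dkk3. Against the other Nefh-high neurons, 8 of the 10 remained at least 2-fold lower, and Mrgprd and Tmem45b did not.

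Markers of the other neuron classes were mostly low. Their levels are given as sums over each list, since most tested genes of the first 3 lists passed the filter through the other neurons alone. The 10 markers of nonpeptidergic nociceptors summed to 48.7 CPM in control and 27.5 CPM in CFA members against 865 and 708 CPM in the other neurons, with 4 and 6 of them at 0 in members. The 7 markers of Sst Nppb itch neurons summed to 19.5 and 11.8 CPM against 140 and 218 CPM. Those of C-fiber low-threshold mechanoreceptors summed to 220 and 71.7 CPM against 277 and 360 CPM. In control members Th (tyrosine hydroxylase) gave 147 of the 220 CPM, and 84.8% of its UMIs came from 2 cells. Markers of peptidergic C nociceptors summed to 4306 and 3063 CPM against 10769 and 9678 CPM. A-fiber markers went the other way, at 5374 and 5740 CPM against 1227 and 1346 CPM, led by Nefm. Among them was Necab2, a calcium-binding protein gene, at 151 and 107 CPM against 14.2 and 14.7 CPM. Nefm was not particular to the members, with cell medians of 2440 and 2749 CPM against 2202 and 2595 CPM in the other Nefh-high neurons. Scn4b, also an A-fiber marker, had cell medians of 537 and 341 CPM in members against 210 and 143 CPM in those neurons. Yet 2 of the 14 A-fiber genes (Smr2 and Bmpr1b) were at 0 in control members and 4 (also Spp1 and Kcns1) in CFA members, and Calb1 stood at 1.22 and 0.982 CPM.

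Among thermosensory TRP channels other than Trpm8, none was at least 2-fold higher, and several were lower. Trpv1, the capsaicin and heat receptor, stood at 120 and 105 CPM against 282 and 271 CPM. Trpa1, the receptor of mustard oil, stood at 61.2 and 25.5 CPM against 309 and 245 CPM. Trpm3, a further heat-activated channel, was 2.13- and 2.29-fold lower. Of 9 genes of TRPM8 partners and of its lipid cofactor PIP2, 2 were lower and none higher. Pirt, a membrane protein that binds TRP channels, stood at 878 and 1034 CPM against 1041 and 1184 CPM. The 2 genes that were lower were Gnaq, 3.25- and 3.19-fold, and Plcb3, 19.7- and 17.6-fold, which encode a G protein subunit that acts on phospholipase C and one such phospholipase.

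Of 10 sodium channel genes tested, 5 were higher and 2 lower. The 2 lower passed only through the other neurons, and 1 of the higher only through the members. Scn4b, an auxiliary subunit, stood at 568 CPM in control and 450 CPM in CFA members against 45.3 and 55.0 CPM in all other neurons and 255 and 222 CPM in the Nefh-high ones. Scn1a (Nav1.1) stood at 86.4 and 81.5 CPM against 12.4 and 16.8 CPM, with Nefh-high neurons alike at 105 and 77.1 CPM, and Scn8a (Nav1.6) was 3.84- and 3.78-fold higher than in all other neurons, at 112 and 145 CPM against 141 and 197 CPM in Nefh-high ones. Scn7a was 3.16- and 2.69-fold higher. The tetrodotoxin-resistant nociceptor channels were the 2 that were lower: Scn10a (Nav1.8) stood at 15.8 and 18.7 CPM against 362 and 286 CPM, and Scn11a (Nav1.9) at 31.6 and 25.5 CPM against 562 and 458 CPM. Scn10a was at 117 and 202 CPM in the Nefh-high neurons. Scn9a (Nav1.7), at 307 and 290 CPM, was within 2-fold of the other neurons.

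Of 12 tested genes from a list on the excitability of cold-sensing neurons, 6 were higher and 4 lower. Of these, 1 of the higher passed only through the members and 3 of the lower only through the other neurons. Potassium channel genes split in both directions, with 7 of 22 voltage-gated and related genes higher and 9 lower, of which 3 and 7 passed only through the side where they were high. Kcna2 (Kv1.2) was counted in all 73 members and stood at 539 and 582 CPM against 90.5 and 112 CPM, with 284 CPM in the Nefh-high neurons of each library. Its partner Kcna1 (Kv1.1), the subunit best known as a brake on cold responses, stood at 21.5 and 23.6 CPM against 16.9 and 22.3 CPM, within counting error of the other neurons in both libraries. The fast-activating Kcnc1 was 5.90- and 6.95-fold higher, and Kcnc2, Kcnh7 and the calcium-activated Kcnn2 were higher as well. The A-type genes Kcnd1 and Kcnd3 and the auxiliary Kcnip2, Kcnip4 and Kcnab1 were lower. Kcnip2 stood at 7.30 CPM in control members and 0 in CFA members against 175 and 140 CPM.

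Of 4 tested two-pore potassium channels, 3 were higher, and 2 of the 3 passed only through the members. Kcnk9 (TASK-3), a leak channel linked to cold sensing, stood at 79.1 and 68.7 CPM against 3.24 and 3.75 CPM in the other neurons, 24.4- and 18.3-fold higher. Kcnk2 (TREK-1) was counted in all 73 members, at 260 and 272 CPM against 47.1 and 66.3 CPM, and Kcnk1 was 6.28- and 7.49-fold higher. Kcnk4 (TRAAK), with too few UMIs for the count above, stood at 14.2 and 24.5 CPM against 8.12 and 6.48 CPM. Among HCN genes, Hcn4 stood at 171 and 150 CPM against 30.1 and 23.7 CPM, Hcn2 was 3.53- and 2.66-fold higher, and Hcn3 stayed within 2-fold. Of 10 calcium channel genes, 1 (the auxiliary Cacnb1) was lower and none was higher, near the 8.41% and 5.95% of all genes.

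**Figure D2:**
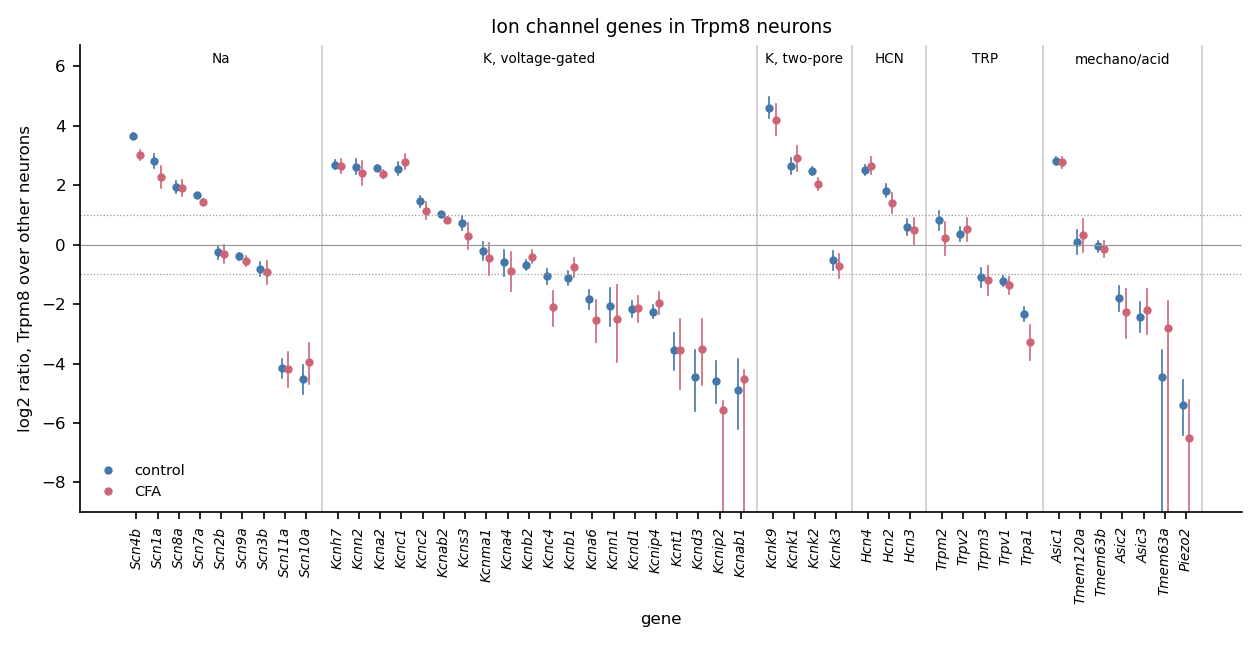
Log2 ratio of summed CPM, Trpm8 neurons over other neurons, for most of the ion channel genes tested, in each library. Blue points are the control and red points the CFA library, bars are 95% counting intervals (cut at the lower edge of the axis where they run past it), and dotted lines mark 2-fold. Scn4b, Kcna2, Kcnk9 and Hcn4 lie above the upper line in both libraries, and Scn10a, Scn11a, Piezo2 and Kcnip2 below the lower one.

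Acid-sensing and mechanosensitive channel genes held 1 higher and 4 lower of 7, the 4 passing only through the other neurons. Asic1 stood at 330 and 343 CPM against 46.9 and 49.8 CPM, and was counted in 48 and 23 members. Asic3 was 5.35- and 4.58-fold and Asic2 3.49- and 4.77-fold lower. The direction therefore differed between family members.

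No neuropeptide gene was higher in Trpm8 neurons, and 9 of 10 were lower, 4 of them passing only through the other neurons. Calca stood at 942 and 632 CPM against 5788 and 5016 CPM, and Nmb (neuromedin B) at 13.4 and 22.6 CPM against 442 and 353 CPM. Adcyap1 (PACAP) was 2.05- and 2.56-fold lower. Tac1 was the gene within 2-fold. Of the intermediate filament genes, Nefh and Nefm were higher, Nefm at 2662 and 3053 CPM against 826 and 880 CPM. Ina was lower, while Prph, the filament of small neurons, stood at 2762 and 2685 CPM against 2724 and 2473 CPM.

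Receptors for growth factors showed 1 of 9 higher and 4 lower. The 1 higher passed only through the members, and 3 of the 4 lower only through the other neurons. Ntrk2, the receptor of brain-derived neurotrophic factor, stood at 66.5 and 102 CPM against 8.51 and 10.1 CPM. The low-affinity receptor Ngfr was 17.1- and 15.8-fold lower, and Ret, Gfra1 and Gfra2 were lower too. Among receptors of inflammatory mediators, 7 of 10 were lower, and 6 of these passed only through the other neurons, including the prostaglandin receptors Ptger1, Ptger4 and Ptgir. The 1 that was higher was Tnfrsf1a, a tumor necrosis factor receptor, at 71.4 and 66.8 CPM in members, with log2 ratios to the other neurons of 2.70 and 2.76. It passed only through the members.

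Of 31 transcription factor genes tested, 3 were higher (Foxp2, Rora and Ebf2) and 9 were lower, 7 of which passed only through the other neurons and all 3 of the higher only through the members. Rora, a nuclear receptor, stood at 163 and 212 CPM against 19.8 and 19.4 CPM, and had UMIs in 45 and 24 members. Ebf2 was 2.69- and 2.25-fold higher. The general sensory factors Isl1, Pou4f1, Prdm12 and Prrxl1 were within 2-fold, Prdm12 for instance at 457 and 347 CPM against 394 and 349 CPM. Runx1, a factor of nociceptor identity, stood at 138 and 173 CPM against 152 and 245 CPM. Casz1, Klf5, Bcl11b and Meis2 were among those that were lower. Of 10 glutamate genes, 3 were higher and 3 lower. The 3 lower passed only through the other neurons, and 1 of the higher only through the members. Those that were higher were the AMPA receptor subunits Gria2 and Gria3 and the NMDA receptor subunit Grin1. Gria3 stood at 32.8 and 47.1 CPM against 3.13 and 2.60 CPM. Slc17a6, the vesicular glutamate transporter VGLUT2, was at 695 and 909 CPM against 409 and 516 CPM.

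Signal of other cells was low in the members. The 8 satellite glia markers summed to 229 CPM (control) and 131 CPM (CFA) in members, below the 431 and 401 CPM of the other neurons. In control glial cells they summed to 27482 CPM, but those cells were chosen by glial markers, these among them. Schwann cell markers summed to 397 and 234 CPM against 1056 and 861 CPM, led by the myelin genes Pmp22 (control) and Mbp (CFA). Immune markers reached 68.1 CPM in control members and 3.93 CPM in CFA members, against 22.2 and 8.57 CPM in the other neurons. They were thus above the other neurons in the control library. Of the most abundant, Cd74, 91.7% of the UMIs of control members came from a single cell. Fabp7, the defining marker of satellite glia, was at 0 in CFA members and was counted in 14 control members, none with 3 UMIs. No member was called a doublet, although only 0.109% of the CFA cells were called at all.

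Within the class, Nefh, Tac1 and Calca varied widely. Nefh ran from 229 to 4207 CPM in control members, with a median of 1236. In CFA members it ran from 106 to 2994 CPM, with a median of 1132. Nefh reached 500 CPM in 62 of 73 members, 40 control and 22 CFA, so most but not all were Nefh-high. Tac1 ran from 281 to 13862 CPM in control members, with a median of 1760, and from 20.7 to 8708 CPM in CFA members, with a median of 881. Calca was the most uneven, from 0 to 7507 CPM with a median of 324 in control members, and from 0 to 5977 CPM with a median of 91.1 in CFA members. The middle ranges (first to last quartile) of the libraries overlapped for each of the genes. The width of these ranges depended on the Trpm8 threshold: among control members with at least 5 UMIs and 100 CPM of Trpm8 it was 628 CPM for Nefh, 1608 CPM for Tac1 and 456 CPM for Calca, against 981, 3200 and 1072 CPM in all control members.

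A level of 5000 CPM of Calca, the mark of the peptidergic group here, was reached by 3 of 73 members, and 1000 CPM by 19. For comparison, the median Calca level was 11816 CPM in control peptidergic neurons and 921 CPM in control Mrgprd neurons. Glial cells hold far fewer UMIs, so the CPM of both can be set side by side only roughly. Of the members with fewer than 3 Trpv1 UMIs, 19 of 30 control and 10 of 17 CFA cells had no more Calca CPM than the glial cells of their library. After thinning, Calca was counted in 85.7% of control and 33.3% of CFA members (98.0% and 91.7% unthinned), against 95.3% of Mrgprd neurons in each library. In the CFA library, 62.3% of the members' Calca UMIs came from 2 cells, both with 3 Trpm8 UMIs, the least the rule allows, and with 0 Foxp2 UMIs. The 2 control members above 5000 CPM of Calca had 3 and 5 Trpm8 UMIs and likewise 0 of Foxp2.

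The markers did not vary independently. Over the 73 members, the rank correlation was -0.72 for Nefh and Tac1, -0.58 for Nefh and Calca and 0.67 for Tac1 and Calca. Within the 49 control cells the values were -0.76, -0.68 and 0.66, and within the 24 CFA cells -0.59, -0.48 and 0.66. The cells share 2 libraries, and depth moved with the markers, since the UMIs of a cell correlated at 0.52 with Nefh CPM and at -0.51 with Tac1 CPM. The part of depth in these relations was not tested.

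**Figure D3:**
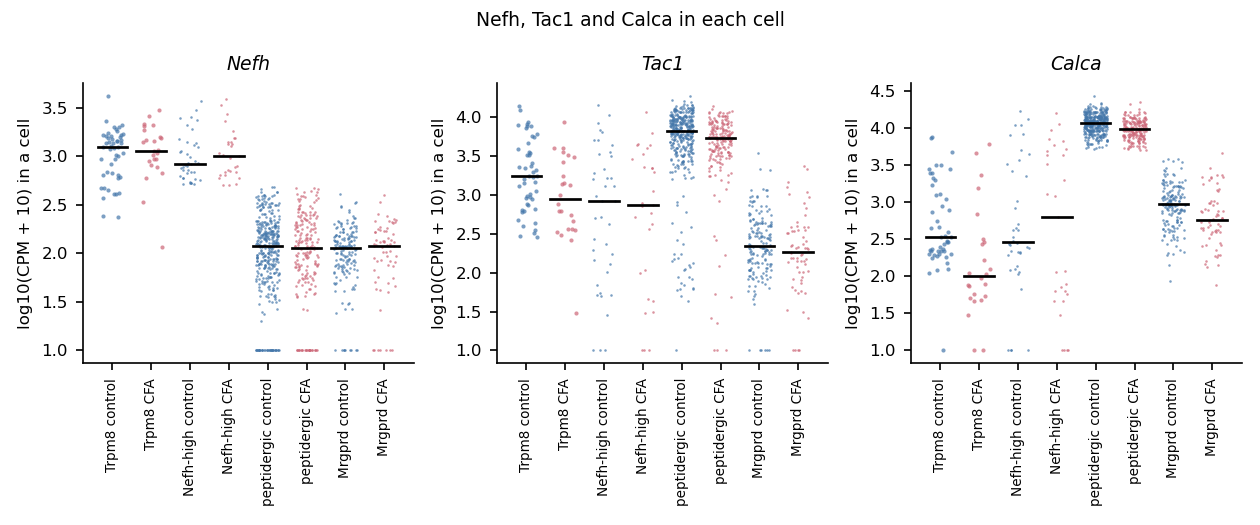
Nefh, Tac1 and Calca per cell, as log10 of CPM plus 10, in Trpm8, Nefh-high, peptidergic and Mrgprd neurons of the control (blue) and CFA (red) library, with 1 point per cell and a bar at the median. Trpm8 neurons lie with the Nefh-high group for Nefh and mostly below the peptidergic group for Calca, and the libraries overlap.

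A split by Trpv1 and Pvalb, chosen after their values were seen, divided the members. Trpv1 had at least 3 UMIs in 26 of 73 members (19 control, 7 CFA), and Pvalb, which encodes the calcium buffer parvalbumin, in 16 (11 control, 5 CFA). No cell had 3 UMIs of both, although 3 of the 16 Pvalb cells had a Trpv1 UMI, and 31 had neither at that level. Pvalb was otherwise rare, at 1.19 and 0.381 CPM in the other neurons against 181 and 161 CPM in members, although in the CFA library 45.1% of its UMIs came from 1 cell, and with every cell weighted equally the control log2 ratio was 5.30 in place of 7.25. The other Nefh-high neurons held 16.8 and 2.85 CPM. After thinning, 16.3% of control members had a Pvalb UMI (24.5% unthinned), against 5.00% of Nefh-high and 0.528% of peptidergic neurons.

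Gfra3, the artemin co-receptor of nociceptors, followed Trpv1. It had at least 3 UMIs in 18 of 19 control and 6 of 7 CFA members with Trpv1, against 2 of 30 and 2 of 17 members without. Median Calca was 2043 CPM in the Trpv1 cells, 198 CPM in the Pvalb cells and 181 CPM in the cells with neither. Median Tac1 was 4071, 451 and 1027 CPM in the same order. Adcyap1 had medians of 834, 94.7 and 116 CPM. Cd9, a tetraspanin, had 1318, 50.9 and 358 CPM. These medians were highest in the Trpv1 cells of each library, and the order of the 3 groups held in each library alone for Tac1 and Cd9. For Calca and Adcyap1 the Pvalb cells and the cells with neither changed places between libraries.

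Nefh and Scn4b were highest in the Pvalb cells. Median Nefh was 591 CPM in the Trpv1 cells, 1894 CPM in the Pvalb cells and 1379 CPM in the rest. Scn4b had medians of 151, 794 and 483 CPM. Hjurp fell to a median of 395 CPM in the Trpv1 cells, against 1980 and 1994 CPM. Kcnk9 was lowest in the Pvalb cells, at 16.7 CPM against 119 CPM in the Trpv1 cells and 74.4 CPM in the rest. Foxp2 medians lay closer together, at 121, 108 and 139 CPM, as did those of Rora, at 125, 145 and 174 CPM. In the CFA library alone they were 106, 85.9 and 154 CPM for Foxp2 and 106, 139 and 214 CPM for Rora. A Foxp2 UMI was found in 22 of 26 Trpv1 cells, 16 of 16 Pvalb cells and 30 of 31 of the rest. Trpm8 itself, which the rule used, had medians of 139, 210 and 250 CPM, and median depth was 38760, 56126.5 and 44590 UMIs. The part of depth in these differences was not tested.

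**Figure D4:**
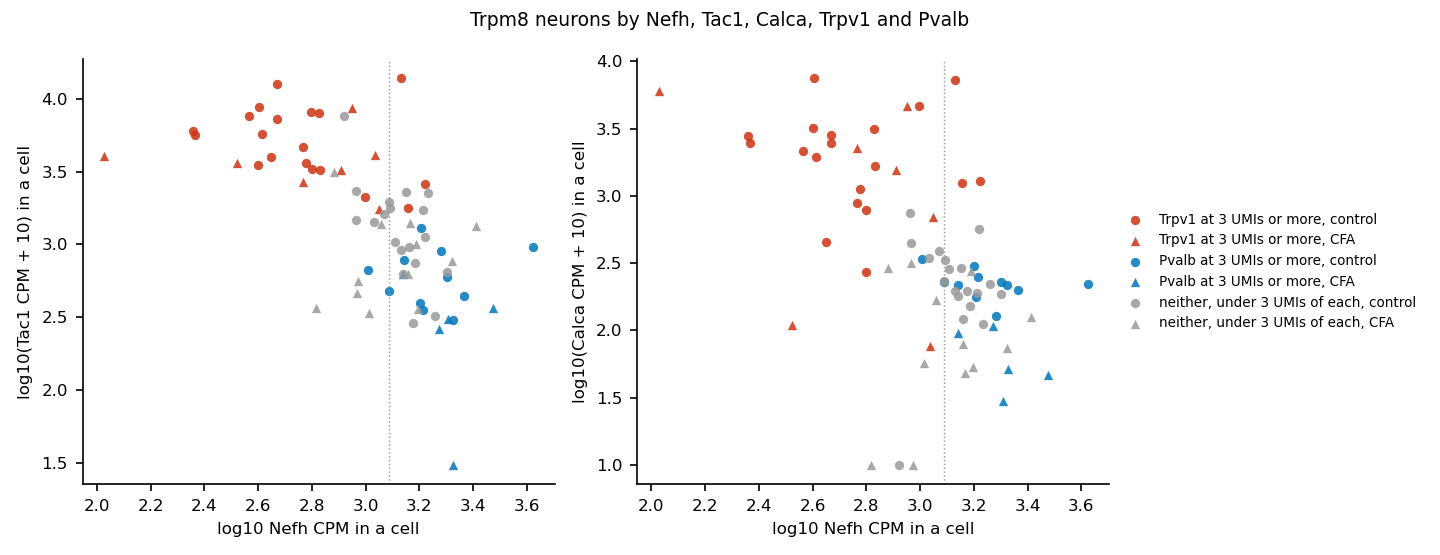
Tac1 (left) and Calca (right) against Nefh in each of the 73 Trpm8 neurons, on log10 axes of CPM (plus 10 for Tac1 and Calca), coloured by Trpv1 or Pvalb at 3 UMIs or more, with circles for control and triangles for CFA cells. The dotted line marks the median Nefh level of 1228 CPM. Of the cells with Trpv1, 23 of 26 lie left of the line, and of those with Pvalb 14 of 16 lie right of it.

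Splitting the members at their median Nefh level, 1228 CPM, gave 36 upper cells (25 control, 11 CFA) and 37 lower cells. The cut runs through a range, with 7 cells within 10% of it. In both libraries 40 of 3943 genes were at least 2-fold higher in the upper cells (1.01%) and 118 were at least 2-fold lower (2.99%), at a median of -0.01 and -0.02 for all genes. With the middle cells left out (upper against lower tertile), 159 of 3122 genes were higher and 139 lower, of which 37 were among the 40 and 81 among the 118. Of the 26 Trpv1 cells, 23 were in the lower group. Kcnn2 (a calcium-activated potassium channel) stood at 102 CPM in upper and 36.4 CPM in lower control cells, and at 91.5 and 32.5 CPM in CFA cells. Others with large ratios were Smpx, Impa2, Hebp2, Cdr1os, Osbpl1a and Elovl5. Median depth was 51774.5 UMIs in the upper and 39458 in the lower cells.

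Scn2b, a sodium channel subunit, led the lower cells, at 187 against 14.6 CPM in the control and 199 against 1.79 CPM in the CFA library. Gfra3 stood at 424 against 37.9 CPM and at 264 against 19.7 CPM. Gal, which encodes the peptide galanin, stood at 116 against 30.6 CPM and at 154 against 25.1 CPM. Bex1, Itm2a, Gnb4, Rprm and Fam89a completed the 8. Of the peptidergic nociceptor markers, Trpv1, Gfra3, Calca, Tac1, Adcyap1 and Gal were at least 2-fold higher in the lower cells, and of the nerve injury and regeneration genes Gal, Gap43, Sox11, Stmn4, Atf3 and Jun. Of the A-fiber markers, Nefh (which made the split), Pvalb and Scn4b were higher in the upper cells and the neurotrophin receptor gene Ntrk3 in the lower cells. A gene entered with 30 UMIs in either group, so how much of a list was past 2-fold depends on that filter.

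The effect of CFA was compared as 1 library against 1 library. Of 5796 genes with at least 100 UMIs over the members of both libraries, 17 were at least 2-fold higher in CFA members (0.293%) and 38 at least 2-fold lower (0.656%). The same genes in the other neurons gave 5 (0.0863%) and 8 (0.138%), from many more cells. The median gene differed by -0.04 on the log2 scale in members and 0.00 in the other neurons. Of the 55 genes, 42 differed in the same direction in the other neurons and 5 were past 2-fold there. Most had few counts, with 13 of the 17 and 37 of the 38 under 300 UMIs. Among members with at least 5 UMIs and 100 CPM of Trpm8, 6 of the 17 and 12 of the 38 were called again. With these fewer cells 5208 genes reached 100 UMIs, so a gene could drop out by its counts as well as by its ratio.

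Among the leading genes of the class, Hjurp, Foxp2 and Hpca differed by -0.01, -0.01 and -0.03 on the log2 scale, whereas Kcnh8 and S100a4 differed by 0.54 and 0.51 and Angpt4 by -0.50. By list, 1 of 16 potassium channel genes was past 2-fold (Kcnc4, lower in CFA members at -1.01 against 0.02 in the other neurons), and 0 of 9 sodium channel, 4 two-pore, 4 HCN, 10 calcium channel and 21 transcription factor genes. So few genes were past 2-fold in all that these counts set no list apart. Of 6 neuropeptide genes none was past 2-fold, although the summed Tac1 level was 2322 CPM in control and 1464 CPM in CFA members. Of 6 TRP channels, Trpa1 was past 2-fold, at 61.2 CPM in control and 25.5 CPM in CFA members. That level rested on few cells. Among 24 CFA members, 7 had a Trpa1 UMI and 3 had 3 or more, with 12 UMIs in 1 cell. Among 49 control members the numbers of cells were 27 and 11.

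Dbp, a transcription factor of the circadian clock, was highest in the ranking for CFA, at 19.9 CPM in control and 56.9 CPM in CFA members, a log2 ratio of 1.52 (counting interval 0.95 to 2.10) against 0.23 in the other neurons. Lrrc17, a secreted leucine-rich repeat protein, differed by 1.47 in members and by 1.47 in the other neurons. mt-Co1, a subunit of cytochrome oxidase, stood at 2270 and 5827 CPM (1.36 against 0.95 in the other neurons), and Bc1, a small non-coding RNA of neurons, at 1725 and 3825 CPM (1.15 against 0.93). All 3 were higher in CFA cells among the other neurons too. mt-Atp8, Trnt1, Fnip1 and Fam214b followed, with log2 ratios of 1.31, 1.19, 1.16 and 1.14 in members and 0.49, 0.37, 0.20 and -0.06 in the other neurons.

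The lowest in CFA members were mt-Ts1, a mitochondrial transfer RNA, at 60.0 CPM in control and 14.7 CPM in CFA members (log2 ratio -2.03, and -1.63 in the other neurons), and Apoe, the lipid carrier apolipoprotein E, at 70.5 and 17.7 CPM (-1.01 in the other neurons). Without strand in the counting, mt-Ts1 and the adjoining mt-Co1 on the opposite strand cannot be told apart with certainty. Apoe is also a satellite glia marker, at 12460 and 8664 CPM in glial cells. The part of glial RNA in these values was not tested. Tmem233 stood at 59.6 and 15.7 CPM and did not differ in the other neurons (1112 and 1116 CPM). Nme7, 9130401M01Rik, Steap3, Gpm6a and Enc1 completed the 8.

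Response genes of inflammation and injury were examined as lists. Of 10 immediate early genes, 1 was at least 2-fold higher in CFA members, Btg2, an antiproliferative gene induced by activity and stress, at 28.8 and 67.7 CPM, with a list median of 0.30 in members and 0.16 in the other neurons. Of 8 interferon response genes 1 was higher, Ifit1, with a list median of 0.02 in members and -0.48 in the other neurons. It stood at 23.5 CPM in control and 59.9 CPM in CFA members, but 80.3% of its CFA UMIs came from 2 cells, and without them the log2 ratio was -0.86. None of 8 nerve injury and regeneration genes was past 2-fold (list median -0.07), Atf3 among them with a log2 ratio of 0.10. Of 11 mitochondrially encoded genes, 2 were higher (mt-Co1 and mt-Atp8), with a list median of 0.25 in members and 0.00 in the other neurons. The genes mt-Nd4l, mt-Co2, mt-Co3 and mt-Atp6 were at or under 1 CPM in members of both libraries, although every cell uses them, so the mitochondrial values rest on part of the mitochondrial genes.

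**Figure D5:**
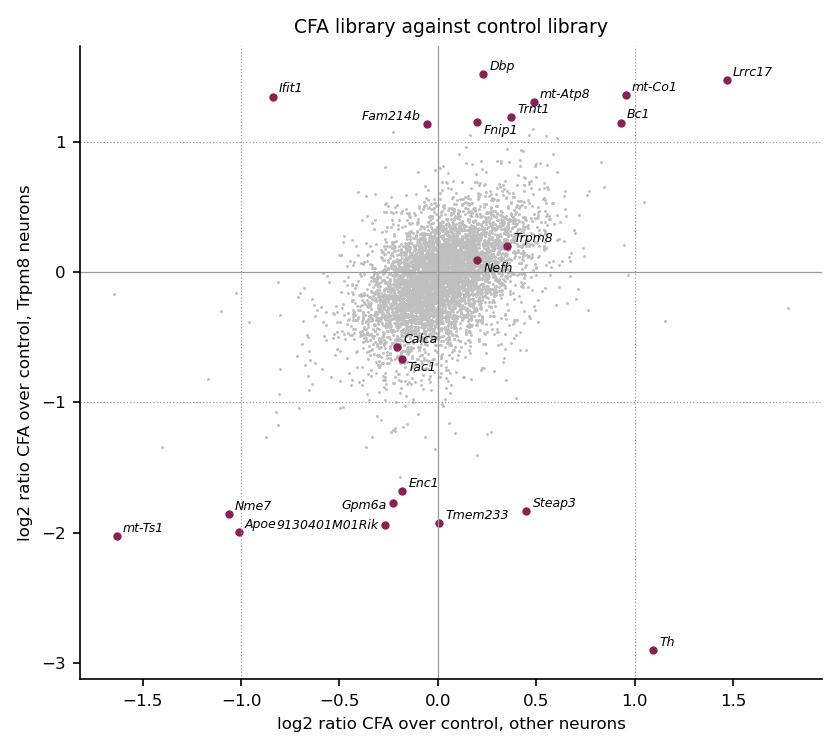
Log2 ratio of CFA over control in Trpm8 neurons (vertical) and in the other neurons (horizontal), 1 point per gene with at least 100 UMIs in members, with labelled points for genes named in the text and dotted lines at 2-fold. Lrrc17, mt-Co1, Bc1, mt-Ts1 and Apoe lie off 0 on both axes, and Th and Steap3 lie below 0 for members and above 0 for the other neurons.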

How the data were processed

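Single-cell RNA was measured in 1 control and 1 CFA library of mouse TG cells. The authors deposited UMI counts per gene and cell, not normalized. The submitters' processing notes name fastp and GRCm38, and the aligner, the annotation, the calling of cells and the use of strand in counting are not given in the sources used here. Here the counts were filtered and summed as stated in the results, and CPM are UMIs per 1000000 UMIs of a cell or of a group of cells. The filter on genes and mitochondrial UMIs is the one the study states, and it left 10356 of 11378 cells, a number that differs from the one in the study. Log2 ratios are of summed CPM within a library, with conditional exact binomial 95% intervals, and shares have exact Clopper-Pearson intervals. With no replicate, no gene was tested, and "tested" means only that it passed the filter on low counts. Counts under 3 were set to 3 in ratios.

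The class, the 33 gene lists (418 genes) and the alternatives were chosen with earlier results of these data known, so none is independent evidence. Genes were named by rank: the 20 highest and 10 lowest against the other neurons by the less extreme library, and the 8 highest and 8 lowest for CFA and for the Nefh split, each with at least 30 UMIs (for CFA 100 over both libraries) and UMIs in at least 20% of the cells of the higher group, and no cell with over 25% of that group's UMIs. The 10 lowest instead needed at least 20 CPM in the other neurons. List members could also be named. Nefh-high neurons had at least 500 CPM of Nefh. Peptidergic neurons had at least 5000 CPM of Calca and less Nefh. Mrgprd neurons had at least 3 UMIs and 50 CPM of Mrgprd, with less Nefh and Calca. Scrublet in Scanpy 1.11.5, at an expected rate of 0.05, called 102 control cells (1.52%) and 4 CFA cells (0.109%) as doublets, so it called almost nothing in the CFA library. Doublets were kept, and no Trpm8 neuron was among the calls. Thinning drew 5000 UMIs per cell. Symbols were matched to GENCODE M21 (96.5% of 39098). The ratio script was tested on simulated data. Software versions were SciPy 1.17.1, NumPy 2.4.6, pandas 2.3.3 and Python 3.11.15. A few genes are not reported here.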

Additional observations from a re-analysis of the deposited data

Results flagged for a closer look

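Outside the neurons, 1 control cell and 1 CFA cell passed the Trpm8 rule. The control cell had 3 Trpm8 UMIs among 8595 and was removed by its 34.7% of mitochondrial UMIs, and the CFA cell had 3 among 1836 UMIs and 7 UMIs of the neuronal genes, below the 10 that a neuron needed.

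The direction of CFA against control in Trpm8 neurons was opposite to that in the other neurons, past 2-fold in members, for 6 genes with intervals on opposite sides of 0, and the difference was not tested for any of them. Ifit1 had a log2 ratio of 1.35 in Trpm8 neurons and -0.84 in the other neurons, with 80.3% of its CFA UMIs in 2 cells. Steap3, a metalloreductase of iron uptake, had -1.84 and 0.45, at 49.1 CPM in control and 13.7 CPM in CFA members. Th, which encodes tyrosine hydroxylase, had -2.90 and 1.09, and 84.8% of its 362 control UMIs came from 2 cells. The other 3, named after their values were seen, were Myc (1.07 and -0.23), Crebbp (-1.40 and 0.20) and Pcdh17 (-1.24 and 0.25).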

How the results depend on the processing

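No paired analysis was possible because each condition has 1 library, and for the same reason no replicate could be left out. Under the other settings tried, leaving out single cells aside, 77 main values stayed within 1.5 times (counts, ranges) or within their interval (shares, medians) and 11 moved. Of the values of single genes and lists 2020 stayed, 156 moved and 1 reversed. Against other neurons, the ratio moved by over 1.5 times for 22 of 136 genes with every cell weighted equally and for 32 with at least 5 UMIs and 100 CPM of Trpm8. A filter of 100 UMIs or 50 CPM gave 226 genes higher and 375 lower than in other neurons (427 and 603 at the lower filter), because fewer genes were tested. CFA gave 8 genes higher and 28 lower among members with at least 5 Trpm8 UMIs and 100 CPM, of which 6 and 12 were among the genes called with all members, and with at least 300 UMIs per gene 4 higher and 1 lower (17 and 38). Leaving out the middle cells by Nefh (upper against lower tertile) gave 159 genes higher in the upper cells (40 at the median cut) and 139 lower (118), of which 37 and 81 were among those at the median cut.

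With 5 UMIs and 100 CPM of Trpm8, the interquartile range in control members was 628 CPM for Nefh (981), 1608 CPM for Tac1 (3200) and 456 CPM for Calca (1072). Thinning to 5000 UMIs gave a Nefh interquartile range of 1300 CPM (774) and a Calca median of 0 CPM (91.1) in CFA members. The CFA to control ratio reversed for Htr3a, a serotonin receptor channel, to 0.094 from -1.23 at the stricter Trpm8 rule, and for Ifit1 to -0.86 from 1.35 without the 2 CFA members with most Ifit1, an alternative chosen after seeing the data. Without the 2 control members with most Th, Th went from -2.90 to -0.27. The cause of the changes other than fewer genes or cells was not tested.

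The 24 CFA members held 1018561 UMIs and the 49 control members 2466497, so genes under 100 UMIs were not compared. No replicate spread is known, and the number of mice behind a library is not stated.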

Other observations

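Outside the comparisons above, 1 of 4 tested opioid, cannabinoid, serotonin and adrenergic receptor genes was higher and 2 were lower. The higher was Oprl1, the nociceptin receptor gene, at least 2-fold above the other neurons in both libraries. It passed the filter on low counts only through the members, and the 2 lower genes passed only through the other neurons. The 9 nicotinic receptor subunits summed to 82.7 CPM (control) and 64.8 CPM (CFA) against 220 and 187 CPM in the other neurons, and the 8 purinergic receptors to 38.9 and 29.5 CPM against 171 and 169 CPM. None of 5 GABA-A and glycine receptor genes was past 2-fold. Of 11 interferon response genes, 5 were lower, of which 3 passed the filter on low counts only through the other neurons, and the other 2 were the class I major histocompatibility genes H2-K1 and H2-D1. Of 9 nerve injury and regeneration genes, 3 were lower (Gal, Gap43 and Flrt3).

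Several genes owed their level to single cells. All 20 Sstr2 UMIs of CFA members came from 1 cell, as did 17 of 18 Pou4f3 UMIs, and 72.4% of the Cartpt UMIs of control members came from 1 cell.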
